A study of Mus musculus with 12 samples.

Results

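The genes of the eukaryotic translation initiation factors, which bring ribosomes to the start codons of mRNA, were followed through meiotic maturation in mouse oocytes with and without the RNA demethylase ALKBH5. Members were chosen by symbol as all genes named Eif1 to Eif6, and 66 genes of the table matched. Pseudogenes (10 genes) were set aside, as were *Eif4e1b* and *Eif4enif1*, which left 54 of the 56691 genes in the table. Of the 54, 50 received at least 1 count in every library and 47 had a mean of at least 100 counts. *Eif2c5* had 0 counts in all libraries and *Eif4ebp3* had reads in KO GVBD replicate 1 and KO MII replicate 2 only, and neither passed the filter on low counts in any comparison.

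Oocytes came from 3-week-old WT and *Alkbh5*−/− (KO) females of C57BL/6 background, all primed with gonadotropin. The KO animals lack exon 1 of *Alkbh5* in all tissues. Denuded oocytes were taken as the germinal vesicle (GV) stage at 0 h of culture, as germinal vesicle breakdown (GVBD) at 4 h and as metaphase II (MII) at 16 h, and 2 libraries were made for each of the 6 groups from pools of oocytes. The labels name the stage, and the methods of the study give the time in culture. In the study's culture experiments most KO oocytes stayed at the GV stage. Whether oocytes for the libraries were picked by the stage they had reached is not stated. The stage reached and the genotype therefore cannot be told apart in KO libraries labelled GVBD and MII. Counts of *Alkbh5*, which check the labels, were 5355 to 10181 in the WT and 54 to 143 in the KO libraries. All 10 oocyte markers had reads in every group. Of 12 granulosa and cumulus markers, 9 to 11 had reads in a group, but their summed level, in counts scaled by the spike-in as described next, was at most 3685, against at least 591216 for the oocyte markers. Blood markers were uneven between libraries, as given beside the result they touch. The study describes the libraries of a group as independent biological samples, without saying how animals were divided between them, and p-values measure the spread between these libraries.

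Counts were compared after division by the ERCC spike-in, a set of synthetic RNAs added to each tube, so that a scaled count follows the amount of a transcript per tube and not its share of the library. A tube with fewer oocytes and oocytes with less RNA cannot be told apart on this scale. By the study's methods, polyadenylated mRNA was reverse transcribed, so a scaled count follows transcripts captured with a poly(A) tail. The study reports that tails of assayed maternal transcripts shortened during WT maturation, and less so in KO. How far tail length affected the counts was not tested, so a transcript that fell here is one with a lower scaled count. Total counts were 28.56 to 40.25 per library in units of 1e6. Tests used edgeR on every gene of the table that passed a filter on low counts. The threshold was a Benjamini-Hochberg adjusted p under 0.05 together with a log2 fold change of at least 1 in size, and a gene past it is described as called.

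Initiation in eukaryotes begins with the ternary complex of eIF2, GTP and initiator tRNA on the small ribosomal subunit, where eIF1, eIF1A, eIF3 and eIF5 hold it ready to scan. The cap complex eIF4F, made of the cap binder eIF4E, the scaffold eIF4G and the helicase eIF4A, brings the mRNA. eIF2B reloads eIF2 with GTP, and the eIF2 alpha kinases block that step under stress. Growing oocytes store mRNA that is silent until meiosis resumes, full-grown oocytes are transcriptionally quiet, and the later stages depend on translating or destroying that store, so the mRNAs of the initiation machinery are themselves part of it.

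The 54 genes together made up 0.663% ± 0.037 (SD, n = 2) of the endogenous counts in WT GV. At WT GVBD the share was 0.578% ± 0.004, and at WT MII 0.813% ± 0.033. In KO the share was 0.647% ± 0.006 at GV and 0.698% ± 0.024 at GVBD, with 0.668% ± 0.017 for the MII libraries. At MII the share was thus higher in both WT libraries than in both KO libraries. The member behind most of this gap in the sums was *Eif2s2* (ENSMUSG00000074656, GRCm38 chr2:154871410-154892935, minus strand), which encodes the beta subunit of eIF2. It took 36.1% and 37.5% of the initiation factor counts in the WT MII libraries and 20.6% and 21.4% in the KO MII libraries. It took 20.1% and 20.3% in WT GV against 15.6% and 14.9% in KO GV. The GVBD libraries had the lowest shares (12.1% and 9.23% in WT, 9.52% and 14.3% in KO). All members but *Eif2s2* together held 0.514% ± 0.013 of the endogenous counts in WT MII and 0.528% ± 0.017 in KO MII. The WT GV and WT GVBD libraries had 0.529% ± 0.03 and 0.516% ± 0.015, KO GV had 0.548% ± 0.002, and the highest share was in KO GVBD (0.614% ± 0.002). Shares were not tested, since an exact permutation test of 2 against 2 libraries gives no two-sided p under 0.333.

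**Figure D1:**
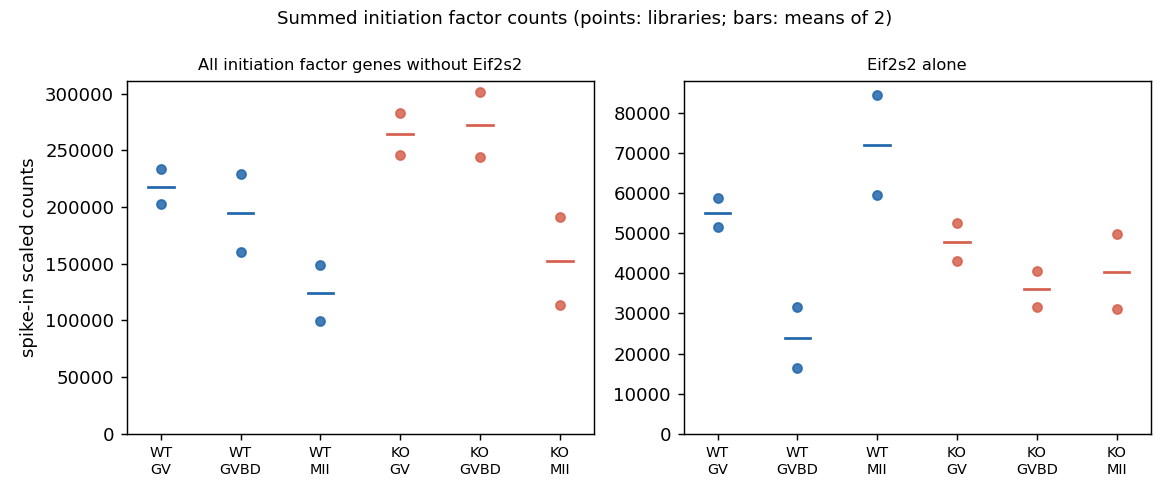
Summed spike-in scaled counts of the initiation factor genes without *Eif2s2* (left) and of *Eif2s2* alone (right) in the 6 groups; points are libraries and bars are means of 2. Without *Eif2s2* the mean was 218125 scaled counts in WT GV and 124338 in WT MII, whereas *Eif2s2* alone had a mean of 55142 in WT GV and 72033 in WT MII and 40434 in KO MII.

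Levels differed widely between subunits of one complex. They are compared here as scaled counts per kilobase of exon, averaged over the 2 libraries of a group. *Eif1b*, *Eif3k*, *Eif2b1* and *Eif2s2* had the highest means over all 12 libraries, in an order that differed between groups. In WT GV *Eif3k* was first (18734), and in WT MII *Eif2s2* was first (10664) and *Eif3k* the lowest of these genes (6236). *Eif1b*, a paralogue of the start codon selection factor gene *Eif1*, stood at 13525 per kilobase in WT GV and 9077 in WT MII, and *Eif1* at 2609 and 2915. The level of *Eif1b* exceeded that of *Eif1* in all 12 libraries, by 1.95-fold to 5.88-fold. Their coding sequences have 64 mismatches over 342 bases (81.3% identity) and no identical run over 25 bases. The start of both coding sequences is shown to make this visible, with the 19 mismatches of the first 120 bases in capitals (GENCODE transcripts on GRCm38, genes at chr11:100319885-100322096 and chr9:120492232-120495330, both plus strand).
Eif1: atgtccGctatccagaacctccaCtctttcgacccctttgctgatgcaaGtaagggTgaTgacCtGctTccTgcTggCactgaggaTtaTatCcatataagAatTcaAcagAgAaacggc
Eif1b: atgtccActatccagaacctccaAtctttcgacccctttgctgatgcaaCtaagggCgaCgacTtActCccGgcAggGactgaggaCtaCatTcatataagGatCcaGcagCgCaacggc

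Reads of *Eif4a1*, which encodes the main eIF4A helicase, are much harder to place. The gene table also lists a processed copy of it, *Eif4a-ps4* (GRCm38 chr1:60703932-60705149, plus strand), which the symbol rule set aside. Over 1218 aligned bases, the coding sequence of *Eif4a1* (GRCm38 chr11:69666936-69672423, minus strand) and the copy differ by 1 substitution, G534A, counted from the first base of the *Eif4a1* start codon. The 100 bases around it are printed with the mismatch in capitals, because they show how little sequence separates the reads.
Eif4a1: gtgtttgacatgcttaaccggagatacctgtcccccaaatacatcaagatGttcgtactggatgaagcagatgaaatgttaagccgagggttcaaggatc
Eif4a-ps4: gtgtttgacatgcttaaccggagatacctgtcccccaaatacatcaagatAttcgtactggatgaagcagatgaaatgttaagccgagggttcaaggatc

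The copy received 0.696 to 0.811 counts for each count of *Eif4a1* in the 12 libraries (median 0.739), and the level of *Eif4a1* is therefore uncertain. *Eif2s3y*, the Y-linked copy of the eIF2 gamma gene, received 0.00352 to 0.0755 counts for each count of X-linked *Eif2s3x* in these female cells. The 2 coding sequences are 86.3% identical with no identical run over 34 bases, and the source of these reads was not tested. *Eif3j2* received 0.102 to 0.512 counts for each of its paralogue *Eif3j1*, and whether reads of this pair were split between them was not tested.

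From GV to MII, the WT comparison asks how the initiation factor mRNAs changed during normal maturation. Members of most complexes fell, and each of eIF2, eIF2B, eIF3 and the cap binders also had a member with an estimate above 0. So did the eIF4A helicases, the eIF2 alpha kinases and the factors for start codon selection and subunit joining. Of 51 tested members 22 fell and 0 rose, a share of 43.1% against 30.5% of all tested genes called lower and 30.9% called in either direction. The median log2 change was −0.92 over the members and −1.06 over all tested genes. Scaling by TMM, which sets the typical gene near 0 and so describes the share of the library, gave 16 members lower and 7 higher, against 17.0% and 7.06% of all genes. The 7 were *Eif2ak4*, *Eif2b1*, *Eif2s2*, *Eif3i*, *Eif4e3*, *Eif5* and *Eif5b*. On the spike-in scale none of these 7 differed past the threshold between GV and MII in WT, with log2 changes from 0.26 to 0.51. TMM moved the median of all genes from −1.06 to −0.22, and the members' median from −0.92 to −0.07. Per tube these 7 genes thus had estimates close to 0 while their share of the library was higher. Leaving out either WT GV library left 10 members lower, against 14.4% of all genes called without replicate 1 and 14.3% without replicate 2.

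**Figure D2:**
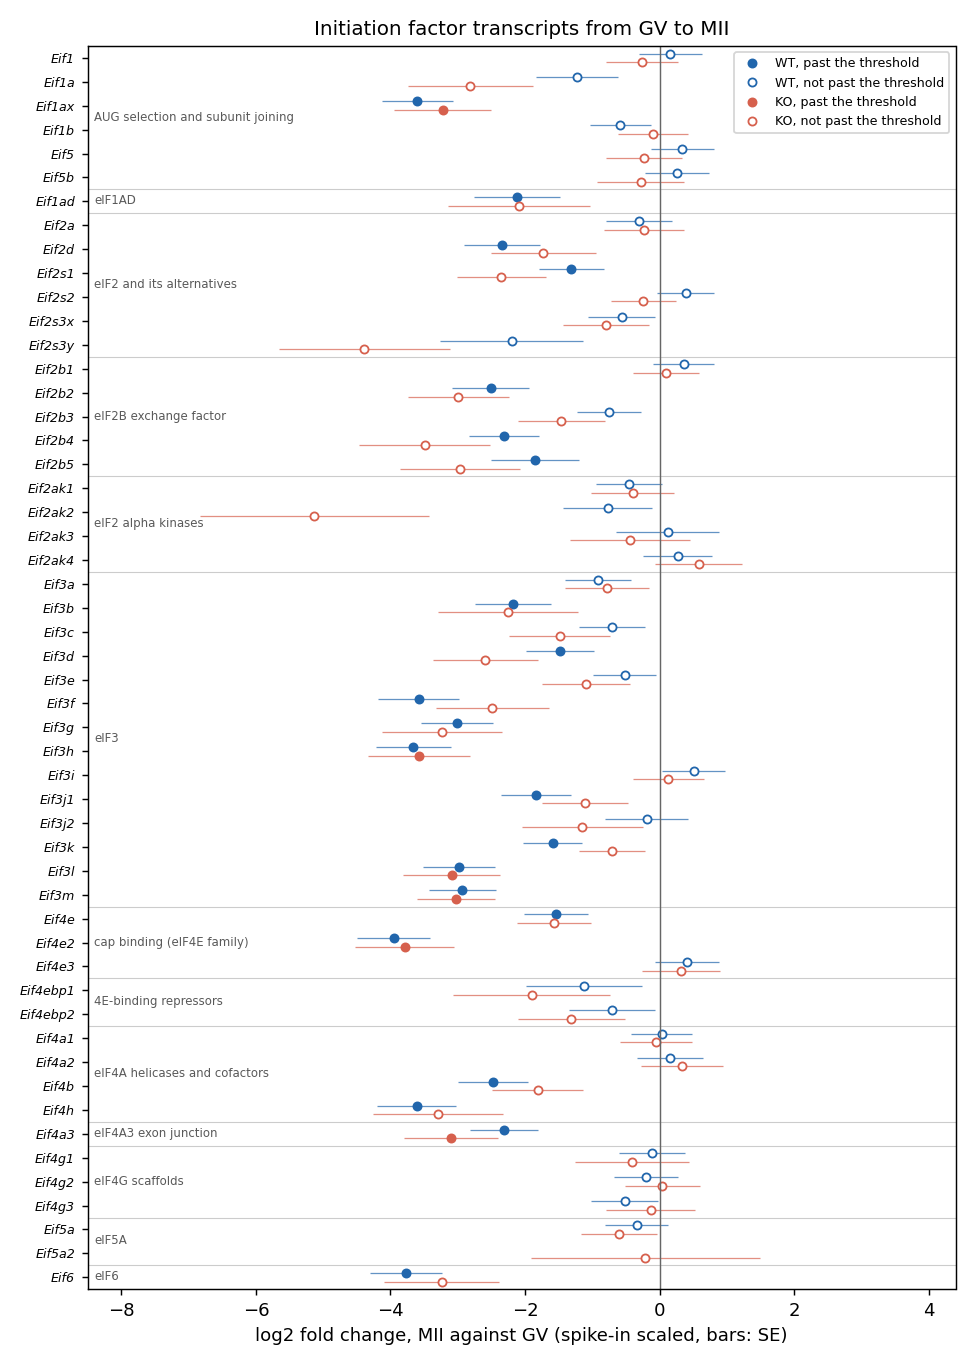
Log2 fold change from GV to MII of each tested initiation factor gene, grouped by role, in WT (blue) and KO (red); bars are SE and filled points passed the threshold (edgeR, spike-in scaling). In WT 22 members lie past the threshold and all of them below 0, and in KO 6 do, which are among those 22.

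The cap binders held the lowest estimate of all members and one of the highest. *Eif4e2*, a cap-binding homologue known for repressing translation, had scaled counts of 4725 and 5455 in the WT GV libraries, 5297 and 4158 in those at GVBD, and no more than 401 and 259 by MII. Both MII values lay far under those of the earlier stages, a fall of 15.4-fold from GV (−3.95 ± 0.54 (SE), adjusted p = 1.09e-11). *Eif4e*, the canonical cap binder, fell by 1.54 ± 0.47 on the log2 scale (adjusted p = 0.00538), from 14739.8 and 14333 to 6279 and 3754 scaled counts. *Eif4e3*, a further homologue, had 4223 and 3603 at GV and 6261 and 4139 at MII, so the ranges met (0.41 ± 0.47 (SE), adjusted p = 0.58). Per kilobase, *Eif4e* led the family in WT GV (2419.5, against 1556 for *Eif4e3* and 679 for *Eif4e2*), and *Eif4e3* led at MII (2068, 835 for *Eif4e* and 44 for *Eif4e2*). The ratio of *Eif4e3* to *Eif4e* was 0.684 and 0.601 in the WT GV libraries and 0.691 and 0.557 in those at GVBD, and MII libraries had 2.38 and 2.63. The same order change appeared in KO, where it was 0.79 and 0.806 at GV and 3.09 and 2.73 at MII.

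Among the other parts of eIF4F, the helicase and scaffold genes were not called and the helicase cofactors fell. *Eif4a1* had 9751 and 9087 scaled counts at GV and 11852 and 7417 at MII (0.03 ± 0.46 (SE), adjusted p = 0.972), and *Eif4a2* also had an estimate near 0 (0.15 ± 0.49). The cofactor genes *Eif4h* (−3.61 ± 0.59 (SE), adjusted p = 1.78e-08) and *Eif4b* (−2.47 ± 0.52 (SE), adjusted p = 1.99e-05) fell, *Eif4h* from 797 and 1021 to 106 and 43.9. None of the 3 scaffold genes passed the threshold, with estimates from −0.52 for *Eif4g3* to −0.11 for *Eif4g1*. *Eif4g2*, which encodes a scaffold that lacks the cap binder's docking site, was the highest scaffold per kilobase (379.7 in WT GV). Its scaled counts were 3023 and 4696 at GV and 4140.3 and 2603 at MII in WT. *Eif4a3* belongs to the exon junction complex in spite of its name, and it fell by 2.31 ± 0.51 on the log2 scale (adjusted p = 4.74e-05), from 3958 and 3674 to 1012 and 529.6. The 4E-binding repressors *Eif4ebp1* and *Eif4ebp2*, which compete with the scaffolds for eIF4E, were low at all stages (at most 68.9 per kilobase in a group mean). Neither passed the threshold (−1.12 ± 0.86 and −0.70 ± 0.64).

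eIF3, the largest factor, holds 9 of the 22 members that fell, out of 14 tested eIF3 genes, against 30.5% of all tested genes called lower. *Eif3h* and *Eif3f* encode the paired MPN-domain subunits, and they fell together. *Eif3h* went from 1636 and 1905 scaled counts at GV to 198 and 83.4 at MII (−3.66 ± 0.56 (SE), adjusted p = 1.53e-09), and *Eif3f* from 667 and 767 to 79.8 and 40.5 (−3.58 ± 0.60 (SE), adjusted p = 4.39e-08). *Eif3g* (−3.01 ± 0.54), *Eif3l* (−2.98 ± 0.53), *Eif3m* (−2.93 ± 0.50) and *Eif3b* (−2.18 ± 0.56) also fell, with adjusted p of at most 0.000688. *Eif3j1*, *Eif3k* and *Eif3d*, the last of which encodes a subunit with a cap-binding surface of its own, complete the 9 at −1.84, −1.59 and −1.48. *Eif3k* was the highest eIF3 gene per kilobase (18734 in WT GV), with 63686 and 37402 scaled counts in the WT GV libraries. The WT GVBD libraries had 28094 and 21829 and the WT MII libraries 20349 and 13299, so each stage lay below the one before. The other 5 eIF3 genes (*Eif3a*, *Eif3c*, *Eif3e*, *Eif3i* and *Eif3j2*) did not pass. *Eif3i*, which sits beside eIF3b and eIF3g in one module, had the highest estimate of all members (0.51 ± 0.47 (SE), adjusted p = 0.469), with 4772 and 3401 scaled counts at GV and 6759 and 4878 at MII, and fewer at GVBD (2438 and 1884). Both MII values lay above both GV values, but the estimate was close to its standard error.

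eIF2 and its exchange factor eIF2B each had 1 abundant subunit that did not pass the threshold while other subunits fell. *Eif2s2* had 58672 and 51612 scaled counts in WT GV and 84494 and 59571 in WT MII (0.39 ± 0.42 (SE), adjusted p = 0.553). The WT GVBD libraries were lower than either, at 31666 and 16301. *Eif2s1*, the alpha subunit that carries the regulatory phosphorylation site, fell by 1.31 ± 0.48 on the log2 scale (adjusted p = 0.0249). *Eif2s3x*, the gamma subunit, did not pass (−0.56 ± 0.50). Per kilobase the ratio of *Eif2s2* to *Eif2s1* was 7.28 and 8.26 in the WT GV libraries and 24.9 in both WT MII libraries. *Eif2d*, a non-canonical initiator tRNA factor, fell (−2.34 ± 0.56 (SE), adjusted p = 0.000231), and *Eif2a* did not pass (−0.31 ± 0.49).

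*Eif2b1*, which encodes the regulatory alpha subunit of eIF2B (GRCm38 chr5:124570213-124579131, minus strand), had 14028 and 14734 scaled counts in WT GV and 20548 and 16388 in WT MII (0.36 ± 0.45 (SE), adjusted p = 0.618). *Eif2b2* (−2.51 ± 0.57), *Eif2b4* (−2.31 ± 0.52) and *Eif2b5*, the catalytic epsilon subunit (−1.85 ± 0.65), fell, with adjusted p of at most 0.017. *Eif2b3* did not pass (−0.75 ± 0.48). Per kilobase, the level of *Eif2b1* was 5.56 and 8.76 times that of *Eif2b4* in the WT GV libraries and 38.8 and 51.4 times in the WT MII libraries. Between the lowest and the highest eIF2B gene, the span in group means was 60.5-fold in WT GV and 280-fold in WT MII.

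**Figure D3:**
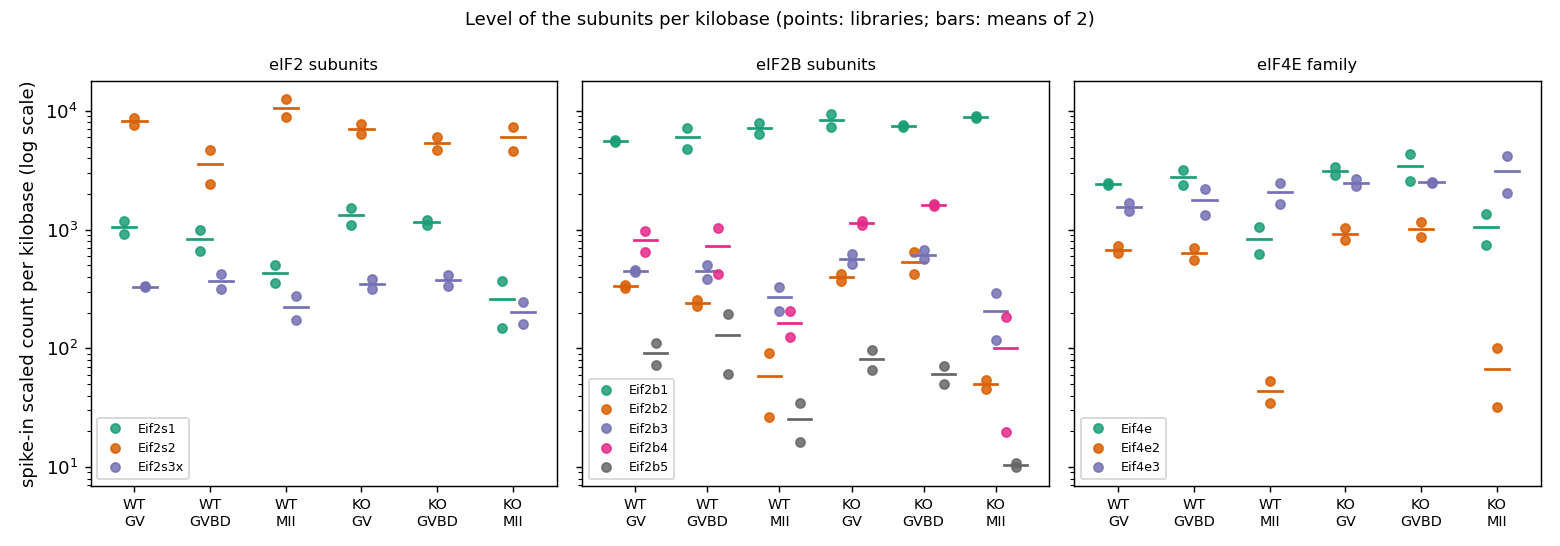
Spike-in scaled counts per kilobase (log axis) of the eIF2 subunits, the eIF2B subunits and the eIF4E family in the 6 groups; points are libraries and bars are means of 2. *Eif2s2* and *Eif2b1* stay in the upper range at MII while *Eif2b2*, *Eif2b4*, *Eif2b5* and *Eif4e2* are lower there than at GV, and *Eif4e3* lies above *Eif4e* at MII.

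Of the factors for start codon selection and subunit joining, 1 of 6 fell, against 30.5% of all tested genes called lower. X-linked *Eif1ax*, a gene of the scanning factor eIF1A, had 7234 and 5969 scaled counts at GV and 8586 and 5645 at GVBD, and only 685 and 403 were left at MII (−3.60 ± 0.53 (SE), adjusted p = 2.35e-10). Its autosomal paralogue *Eif1a* was far lower, with 285 and 234 at GV and 122 and 99.3 at MII, and did not pass (−1.23 ± 0.61 (SE), adjusted p = 0.115). *Eif1b* had 16022 and 14409 scaled counts in WT GV and 12437 and 7986 in WT MII (−0.58 ± 0.46 (SE), adjusted p = 0.38). *Eif1* (0.16 ± 0.47), the GTPase activator *Eif5* (0.34 ± 0.47) and the subunit-joining GTPase *Eif5b* (0.26 ± 0.47) had no change past the threshold. *Eif6*, which keeps free large ribosomal subunits apart from small ones, fell 13.7-fold, from 4859.9 and 4803 scaled counts at GV to 463 and 246 at MII, with the GVBD libraries at 3980.1 and 2047 (−3.77 ± 0.54 (SE), adjusted p = 7.16e-11). *Eif1ad*, a gene named for its likeness to eIF1A, fell from 263 and 300.4 to 71.8 and 57.8 scaled counts (−2.12 ± 0.64 (SE), adjusted p = 0.00433). *Eif5a*, whose product helps stalled ribosomes along, had 4302 and 4334 at GV and 4073 and 2732 at MII (−0.34 ± 0.47 (SE), adjusted p = 0.659).

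In KO, MII against GV asks the same question in a genotype of which few oocytes matured in the study's culture experiments. Of 52 tested members, 6 fell and 0 rose, 11.5% against 3.28% of all tested genes called lower (3.28% in either direction). The 6 were *Eif4e2* (−3.79 ± 0.73), *Eif3h* (−3.58 ± 0.76), *Eif1ax* (−3.22 ± 0.72), *Eif4a3* (−3.10 ± 0.70), *Eif3l* (−3.09 ± 0.72) and *Eif3m* (−3.03 ± 0.58), with adjusted p of at most 0.048. All 6 had also fallen in WT. TMM scaling gave 7 members lower and 3 higher (*Eif2ak4*, *Eif4a2* and *Eif4e3*), against 3.67% and 1.16% of all tested genes. The 16 members called in WT only had KO estimates from −3.49 to −0.71 with adjusted p from 0.0549 to 0.394, and in 15 of them the KO estimate was below −1. The median over the members was −1.39 in KO, against −0.92 in WT, and all tested genes had a median of −1.17. This median rests on single libraries, since it was −2.31 without KO MII replicate 1 and −0.92 without KO MII replicate 2.

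The count of 6 moved with single libraries. Leaving out KO MII replicate 1 gave 35 members, where 54.2% of all tested genes were called, and leaving out KO MII replicate 2 gave 20, where 16.9% were. Leaving out either KO GV library gave 0. DESeq2 gave 20, against 16.3% of all genes. A model of all 12 libraries gave 20 in KO, against 13.3%, and 16 in WT, against 17.4%. The KO MII libraries also lay apart. Over all tested genes the KO against WT median at MII was 0.70 without KO MII replicate 2 and −0.45 without KO MII replicate 1. The 22 members that fell in WT were chosen for low counts in the same WT MII libraries, which by itself favours KO values above them. The share over all genes was not computed. For these 22, KO MII replicate 1 was above both WT MII libraries in 17 and below both in 1. KO MII replicate 2 was above both in 1 and below both in 11. *Eif6* is an example, with 8529.8 and 7652 scaled counts in KO GV but 1483 and 231 in KO MII. *Eif2b4*, with 474 and 50.9 in KO MII, and *Eif4h*, with 288 and 34.4, were spread in the same way.

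The genotype difference in the MII against GV change was then tested as an interaction. No member passed: edgeR called 0 of 52 (1 at an unadjusted p below 0.05), as did DESeq2 and TMM scaling, which called 0.74% and 0.332% of all genes. Among all 20807 tested genes 0 (0.0%) were called, and 1197 had an unadjusted p below 0.05. The 1 member was *Eif2ak2* (−4.40 ± 1.61, adjusted p = 0.669). The fall of *Eif4e2* gave an interaction estimate of 0.16 ± 0.78, that of *Eif6* 0.53 ± 0.97 and that of *Eif3h* 0.07 ± 0.84. The median interaction estimate over the members was −0.17, and it changed sign with single libraries, from −0.86 without KO MII replicate 1 to 0.22 without KO MII replicate 2 and 0.16 without WT MII replicate 1. At standard errors of 0.78 to 0.97, a genotype difference of 1 on the log2 scale was not detectable for these 3 genes.

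Between GV and GVBD, edgeR called 0 of 52 members in either genotype, and DESeq2 did not call any member, against 1.96% of all genes in WT and 1.22% in KO. Of all tested genes edgeR called 0.0511% in WT and 0.22% in KO. Unadjusted p-values lay below 0.05 for 3 members in WT and 2 in KO, against 6.25% and 7.65% of all tested genes. The members' median was −0.01 in WT and 0.11 in KO. The lowest estimates in WT were those of *Eif2s2* at −1.20 ± 0.40 (adjusted p = 0.524), *Eif3k* at −1.02 ± 0.38 (adjusted p = 0.623) and *Eif3i* at −0.92 ± 0.38, which are the 3 with an unadjusted p below 0.05. In KO the same genes stood at −0.40 ± 0.27, −0.16 ± 0.27 and 0.08 ± 0.27. The members that fell by MII had WT estimates here from −1.02 to 0.54, and MII was not tested against GVBD.

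At GV, KO was compared with WT to ask whether the store built during growth already differed. Of 52 members 0 were called by edgeR, against 0.0977% of all tested genes. An unadjusted p below 0.05 was found for 14 members and for 17.9% of all genes. DESeq2 called 1 member, *Eif3j2*, against 3.42% of all genes. Estimates were above 0 for 46 of the 52, with a median of 0.43, but the median over all tested genes was itself 0.36, and under TMM scaling 33 of 52 were above 0 with a median of 0.09. *Eif3j2*, the paralogue of *Eif3j1*, had 131 and 204 scaled counts in WT and 528 and 462 in KO (1.56 ± 0.36 (SE), adjusted p = 0.16, 0.00643 by DESeq2). *Eif6* had 4859.9 and 4803 in WT and 8529.8 and 7652 in KO (0.74 ± 0.16 (SE), adjusted p = 0.153). The groups did not overlap for either gene.

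At GVBD, 1 of 52 members was called (1.92%), against 2.54% of all tested genes, and it was *Eif2ak2*. The median was 0.45 over members and 0.23 over all genes. Without WT GVBD replicate 1 these medians were 0.83 and 0.57, without WT GVBD replicate 2 they were 0.15 and −0.01, and under TMM scaling 0.20 and −0.04. DESeq2 called 3 members (*Eif2ak2*, *Eif3i* and *Eif6*), against 4.63% of all genes. *Eif6* had the highest estimate, with 3980.1 and 2047 scaled counts in WT and 8777 and 11929.5 in KO (1.78 ± 0.54 (SE), adjusted p = 0.0838), and DESeq2 called it (adjusted p = 0.0069). *Eif4h* (1.45 ± 0.56 (SE), adjusted p = 0.195) and *Eif3i* (1.37 ± 0.52 (SE), adjusted p = 0.185) followed. *Eif3i* had 2438 and 1884 scaled counts in WT GVBD and 6413 and 4739 in KO GVBD, without overlap, and DESeq2 called it (adjusted p = 0.0355).

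**Figure D4:**
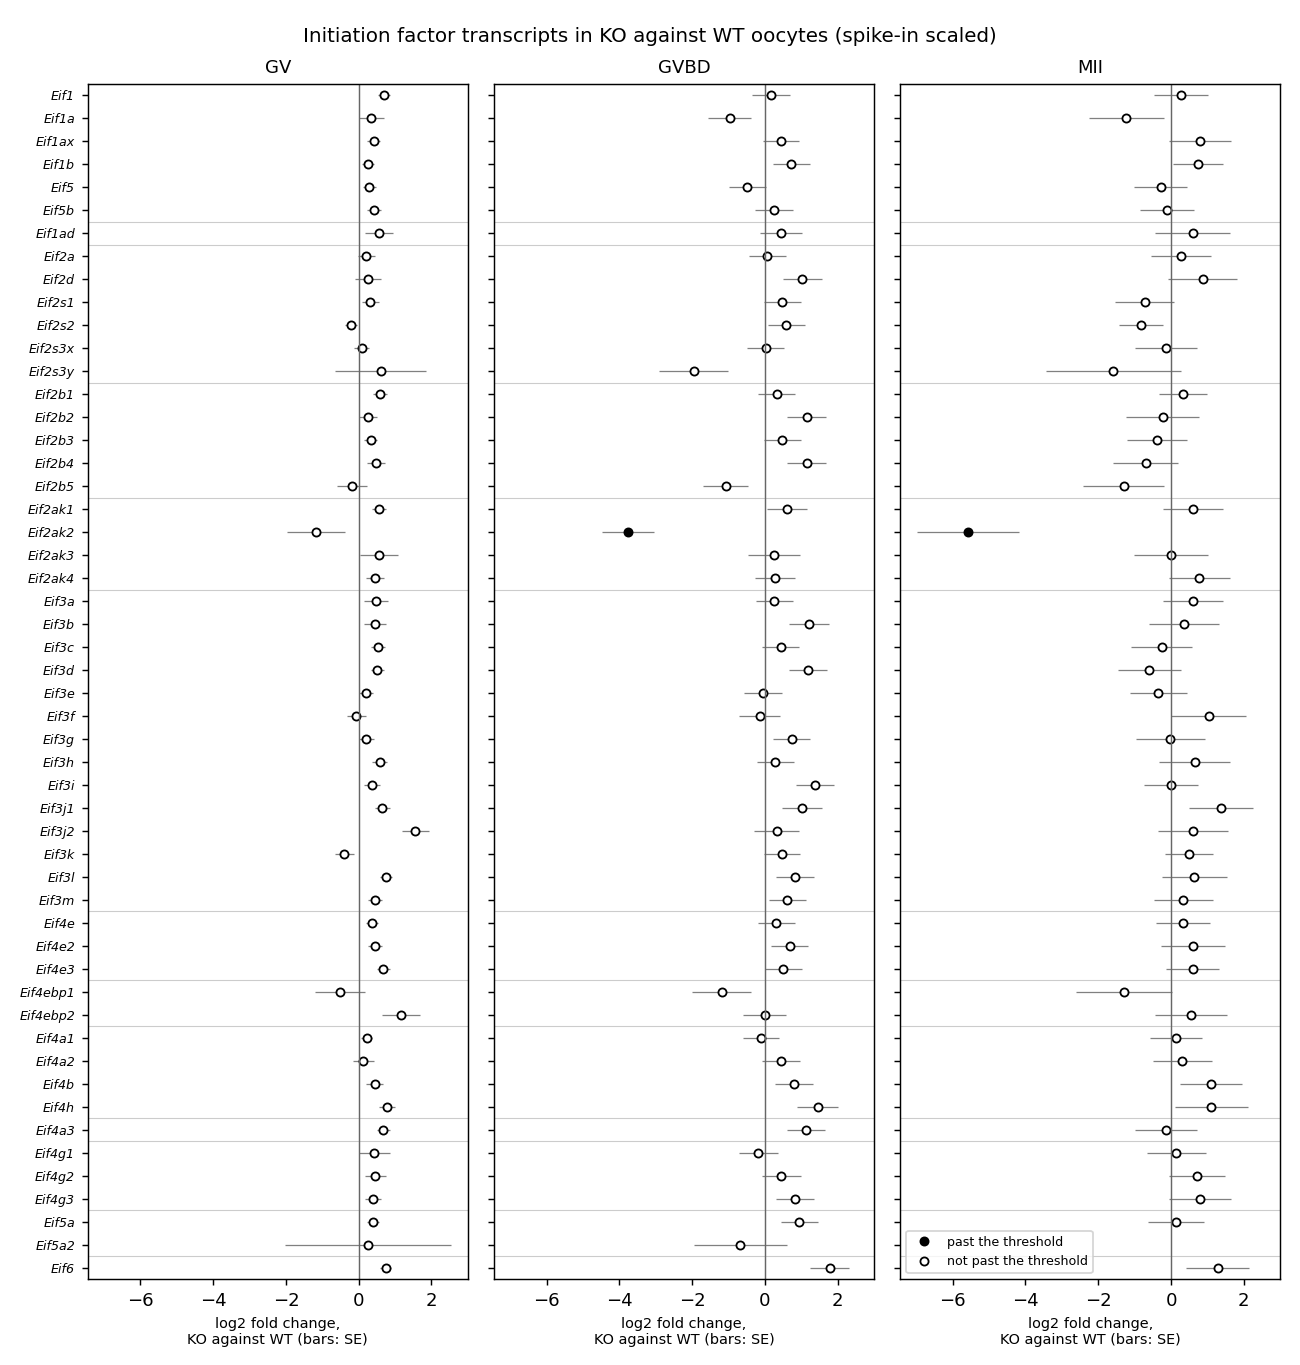
Log2 fold change of KO against WT for each tested initiation factor gene at GV, GVBD and MII, in the same order of roles as for the GV to MII change; bars are SE and filled points passed the threshold (edgeR, spike-in scaling). *Eif2ak2* is the only filled point, at −3.76 in GVBD and −5.58 in MII, and the other points lie between −1.95 and 1.78.

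At MII, 1 of 51 members was called (1.96%), against 0.803% of all tested genes, and it was again *Eif2ak2*. The members' median of 0.31 was close to the 0.30 of all genes, and without KO MII replicate 1 it was −0.36. The highest estimates among members with a mean of at least 100 counts in the compared libraries belonged to *Eif3j1*, *Eif6* and *Eif4h*. *Eif3j1* had 380.5 and 278 scaled counts in WT and 1109 and 596 in KO (1.37 ± 0.88 (SE), adjusted p = 0.926), and both KO libraries were above both WT libraries. For *Eif6* (1.28 ± 0.87) and *Eif4h* (1.11 ± 1.01) the groups overlapped, and without KO MII replicate 1 the estimates turned to −0.61 and −1.12. The lowest estimates under the same minimum belonged to *Eif1a* (−1.23 ± 1.03), *Eif2s2* (−0.83 ± 0.60) and *Eif2s1* (−0.73 ± 0.82), each with an adjusted p of 1. *Eif2s2* had 84494 and 59571 scaled counts in WT MII against 49803 and 31064 in KO MII, without overlap. *Eif1a* had 122 and 99.3 in WT MII against 76.1 and 18.6 in KO MII, also without overlap. *Eif1ax* stood at 1458 and 429 in KO MII, and the level of *Eif1ax* relative to *Eif1a* per kilobase was 15.2 and 18.2 in KO MII and 4.44 and 3.21 in WT MII. At GVBD this ratio was 63.5 and 53 in KO and 20.9 and 22.9 in WT, so at both later stages every KO library had the higher ratio. At GV the KO libraries had 18.7 and 24 and the WT libraries 20.1 and 20.2, which overlap. The ratios were not tested.

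*Eif2ak2* (ENSMUSG00000024079, GRCm38 chr17:78852564-78882573, minus strand) encodes PKR, the eIF2 alpha kinase that responds to double-stranded RNA and is induced by interferon. The GV libraries held 110 and 131 raw counts in WT against 65 and 18 in KO. The GVBD libraries held 155 and 234 against 12 and 10, and the MII libraries 136 and 158 against 4 and 0. Every KO library was below every WT library in raw counts, and the lowest KO values were at the later stages, where few counts were left to measure. Scaled, KO GV replicate 1 reached 118, above the 108 and 76.1 of WT MII. On the log2 scale the KO level at GV differed from WT by −1.17 ± 0.80 (SE), adjusted p = 0.497, which is not past the threshold. *Eif2ak2* fell below WT at GVBD (−3.76 ± 0.72 (SE), adjusted p = 0.00597) and at MII (−5.58 ± 1.39 (SE), adjusted p = 0.0126). The MII estimate rests on 4 counts, all in KO MII replicate 1, and such a fitted value depends on the prior count of the fit. In the model of every stage, with stage as a term, it was −3.34 ± 0.80 (SE), adjusted p = 0.0581, which does not pass the threshold. Within KO, MII against GV gave −5.13 ± 1.70 (SE), adjusted p = 0.103, and within WT −0.77 ± 0.66 (SE), adjusted p = 0.425.

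The call did not hold under every setting. Under TMM scaling the adjusted p was 0.0725 at GVBD and 0.0812 at MII, with DESeq2 it was 0.000226 and 0.00309, and leaving out either WT library of the stage gave 0.223 and 0.25 at GVBD and 1 and 0.867 at MII. At all of these settings the KO estimate was below 0. Blood cell markers were uneven between the same libraries. The 4 markers (*Hbb-bs*, *Hba-a1*, *Alas2* and *Ptprc*) had reads in every group, and their summed scaled level was 53762 to 88372 in WT GVBD and 136 to 259 in KO GVBD, so they moved with *Eif2ak2* there. None of the 4 was at 0 in a KO GVBD library. At MII it was 191 to 529 in WT and 15 to 20288 in KO, and at GV 497 to 136326 in WT and 96307 to 147324 in KO. The markers differed at MII. For *Hbb-bs* the genotypes overlapped there, since the WT libraries held 57 and 535 counts and the KO libraries 8121 and 0. By edgeR *Hbb-bs*, *Hba-a1* and *Alas2* were lower in KO at GVBD (−7.83, −9.67 and −8.64, adjusted p of at most 9.53e-07). At MII the same genes were higher in KO (4.74, 5.31 and 4.67, adjusted p of at most 0.0103). These MII estimates rest on KO MII replicate 1, since KO MII replicate 2 held 0, 11 and 5 counts of them. *Ptprc*, the pan-leukocyte marker, had 8 and 51 counts in KO GVBD against 421 and 348 in WT GVBD. By edgeR it was lower in KO at that stage (−3.62 ± 0.72 (SE), adjusted p = 0.00821). Its MII counts were 57 and 5 for KO and 73 and 96 for WT (−0.79 ± 1.12, not past the threshold). In raw counts *Ptprc* was thus lower in both KO libraries at GVBD and at MII, as *Eif2ak2* was. After spike-in scaling the genotypes stayed apart for *Ptprc* at GVBD but overlapped at MII. Scaled *Eif2ak2* did not overlap at MII, where no KO library exceeded 4.0 and no WT library fell under 76.1. At GV the raw counts of *Ptprc* overlapped, with 143 and 247 for WT and 206 and 144 for KO. Of 5 heart muscle markers, *Tnnt2*, *Actc1* and *Ankrd1* were at 0 in both KO MII libraries and had 198 to 1007 counts in the WT MII libraries. The summed scaled level of the 5 was 2138 to 5728 in WT MII and 1738 to 9640 in KO MII, and 26181 to 41582 in WT GVBD and 19615 to 26380 in KO GVBD. In KO GVBD replicate 1 *Tnni3* had 11928 counts, whereas *Tnnt2*, *Actc1* and *Ankrd1* had 0 and *Myh6* had 1. In KO MII *Tnni3* had 9619 and 2424 counts and *Myh6* had 13 and 2. The sum in these libraries was thus almost all *Tnni3*. At GVBD *Tnnt2* had 361 and 976 counts in WT and 0 and 996 in KO. *Eif2ak2* had 155 and 234 in WT GVBD and 12 and 10 in KO GVBD. At GV *Tnnt2* had 4 and 483 counts in WT and 290 and 332 in KO, where *Eif2ak2* had 65 and 18. WT GV had 110 and 131 counts of *Eif2ak2*. The part of either cell type in the *Eif2ak2* result was not tested.

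**Figure D5:**
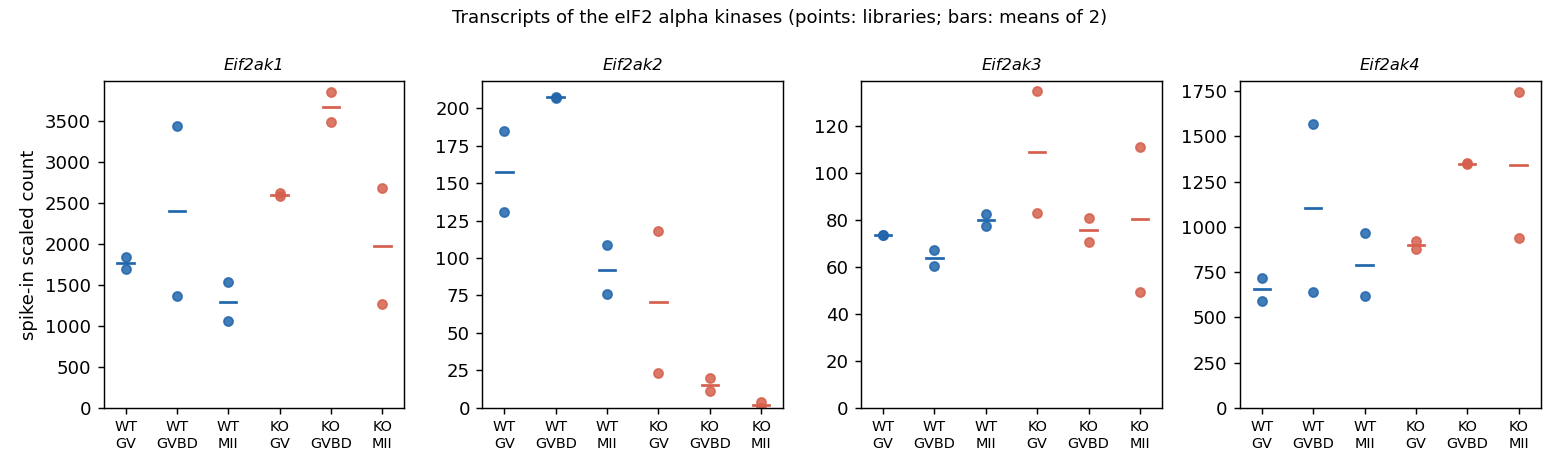
Spike-in scaled counts of the 4 eIF2 alpha kinase genes in the 6 groups, each panel with its own axis from 0; points are libraries and bars are means of 2. *Eif2ak2* is at 76.1 to 208 in WT libraries and at 19.7 or below in the KO GVBD and KO MII libraries, whereas KO and WT ranges of the other kinases meet or KO is higher.

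The other eIF2 alpha kinases were not called in any comparison with spike-in scaling and all libraries of the compared groups. Without KO MII replicate 1, *Eif2ak1* was among the members called lower at MII than at GV in KO. *Eif2ak1*, the haem-regulated kinase, was the highest of them per kilobase (312 in WT GV, against 30.8 for *Eif2ak2*). At MII it had 1535 and 1058 scaled counts in WT against 2690.1 and 1267 in KO (0.61 ± 0.82). *Eif2ak4*, the amino acid sensor GCN2, had 963 and 615 in WT against 1748 and 938 in KO (0.77 ± 0.84). *Eif2ak3*, the endoplasmic reticulum stress sensor PERK, was at 77.4 and 82.4 in WT against 111 and 49.4 in KO (0.00 ± 1.02). Per kilobase *Eif2ak2* was above *Eif2ak3* in WT MII (18.1 and 13.3), and far below it in KO GVBD (3.01 and 12.5).

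Over all stages edgeR called 0 of 52 members, against 1.26% of all tested genes. An unadjusted p below 0.05 was found for 16 members and for 18.8% of all genes. DESeq2 called 3 members, *Eif2ak2*, *Eif3j1* and *Eif6*, against 6.16% of all genes, a share close to that of the members. *Eif2ak2* had the lowest estimate, and the highest were *Eif6* (1.27 ± 0.38 (SE), adjusted p = 0.109), *Eif4h* (1.12 ± 0.42 (SE), adjusted p = 0.177) and *Eif3j1* (1.01 ± 0.29 (SE), adjusted p = 0.0957). *Eif3j1* was above both WT libraries in both KO libraries at GV (1099.9 and 1249 in WT, 1864 and 1814 in KO), at GVBD (2045 and 680.1 in WT, 3065 and 2458 in KO) and at MII. *Eif4ebp1*, chosen after its values were seen, had 51 to 69 raw counts in the 6 WT libraries and 14 to 41 in the 6 KO libraries, without overlap. Its log2 estimate was −0.51 at GV and lower at GVBD (−1.19) and MII (−1.29), and none passed the threshold (adjusted p = 0.248 over all stages). Scaled counts at GV did overlap. The comparisons at single stages and over all stages use the same libraries.

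Partners of the initiation factors, a list of 29 genes for poly(A) binding, signalling to eIF4F, the eIF2 alpha phosphatase, elongation and termination, were read in the same comparisons. In WT, 11 of 29 fell from GV to MII and 0 rose, against 30.5% of all tested genes called lower, with a list median of −1.02. They were the elongation factor genes *Eef1a1*, *Eef1d*, *Eef1g* and *Eef2*, the poly(A)-binding *Pabpc1* and *Pabpc1l* with the regulator *Paip2*, the recycling factors *Denr* and *Mcts1*, the termination factor *Gspt1* and the kinase *Rps6kb2*. *Eef1d* fell most (−4.47 ± 0.54, adjusted p = 1.36e-14). It was also the 1 partner of 29 that edgeR called in KO (−3.89 ± 0.79, adjusted p = 0.0411), against 3.28% of all tested genes called lower. DESeq2 called 8 of 29 there, against 16.3% of all genes. In the KO against WT comparisons edgeR called 0 of 29 at each stage and over all stages. Unadjusted p-values were below 0.05 for 6 at GV, 4 at GVBD, 1 at MII and 8 over all stages. The shares of all tested genes were 17.9%, 14.9%, 7.32% and 18.8%. DESeq2 called 1 at GVBD and 1 over all stages, against 4.63% and 6.16% of all genes.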

How the data were processed

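RNA-seq was made from pools of denuded mouse oocytes in 12 libraries. Per the deposited table and the labels, the authors gave raw read counts per gene, with ERCC spike-in rows, against GRCm38/mm10. The submitters' processing notes name cutadapt 1.9, HISAT2 2.0.4, StringTie 1.3.4d, DESeq2 and edgeR. The annotation release and the strand setting are not given in the sources used here. The labels describe a bulk stranded preparation, whereas the methods describe low-input amplification with spike-in added before reverse transcription. A library held 10 oocytes by the methods text and 20 by a legend, so amounts per oocyte were not computed.

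Gene IDs were matched to symbols for 52073 of 56691 genes (91.85%), and lengths are union exons of the GENCODE annotation. Members, lists and tests were chosen with earlier results of these data known. The summed counts of 92 ERCC rows stood in for library size (221927 to 838409 counts per library), and a scaled count is the count divided by the library's ERCC total over the mean ERCC total. Tests were two-sided quasi-likelihood tests of edgeR 4.0.16 in R 4.3.3 on genes kept by filterByExpr. A printed SE is the size of the log2 estimate divided by the square root of the F statistic of its test, and so is approximate. P-values were adjusted over all tested genes, and the script was tested on simulated data. The 54 members could all be named. Values per library were set for called members, for the 3 highest and 3 lowest changes with a mean of at least 100 counts in MII against GV of WT and in KO against WT at MII, and for the highest member per kilobase in each role. Alternatives were TMM scaling, no filter on low counts, DESeq2 1.42.0, a replicate block, no fold minimum, all 12 libraries in one model and leaving out each library.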

Additional observations from a re-analysis of the deposited data

Results flagged for a closer look

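The KO minus WT difference changed direction between stages for 2 genes. Every KO library lay on one side of both WT libraries at one stage and on the other side at another. The screen covered the 47 members with a mean of at least 100 counts, between GV and GVBD and between GVBD and MII. The share over all genes was not computed. An exact permutation test of 2 against 2 libraries gives no two-sided p under 0.333, so such separation is weak by itself. For *Eif1a*, the low paralogue of *Eif1ax*, the log2 difference was 0.35 at GV, with both KO libraries higher, and −0.97 at GVBD, with both lower. For *Eif2s2*, the most highly counted member, it was 0.59 at GVBD, with both KO libraries higher, and −0.83 at MII, with both lower. At GVBD the lower KO library and the higher WT library were nearly level for *Eif2s2*, at 31698 and 31666 scaled counts, so that side of the pattern rests on a very small margin. None of these 4 differences passed the threshold by itself, and the difference between stages was not tested.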

How the results depend on the processing

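Without a fold minimum, no count of called members changed by over 1.5 times in the 9 comparisons. In KO against WT at GV, where 0 members were called, DESeq2 (3.42% of all genes) and no filter on low counts (2.27%) each gave 1. At GVBD (1 called) TMM scaling and all 12 libraries in one model gave 0, no filter gave 2 and DESeq2 gave 3, and leaving out single libraries gave 0 to 1. At MII (1 called) TMM scaling and the replicate block gave 0, and leaving out single libraries gave 0 to 1. In both, 0 arose without either WT library of that stage. Of all genes at GVBD, TMM scaling called 0.164%, all 12 libraries in one model 0.0545%, no filter 3.25% and DESeq2 4.63%. At MII, TMM scaling called 0.245% of all genes and the replicate block 0.0228%. Over all stages (0 called) TMM scaling gave 1 (2.72% of all genes) and no filter 4 (3.57%). DESeq2 gave 3 there (6.16%) and the replicate block 2 (3.06%). Leaving out single libraries gave 0 to 4 there, with 4 without KO MII replicate 2 and 1 without replicate 1 of WT GV or of KO GV.

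For MII against GV in WT (22 called), leaving out single libraries gave 10 to 24. In KO (6 called) TMM scaling gave 10 (4.83% of all genes), no filter 17 (9.32%), DESeq2 20 (16.3%), the replicate block 19 (13.1%) and all 12 libraries in one model 20 (13.3%), and leaving out single libraries gave 0 to 35. GVBD against GV in KO gave 0 to 1, the 1 being *Eif4g1* without KO GVBD replicate 2. In KO against WT at MII the log2 change without single libraries ran from −1.12 to 1.95 for *Eif4h* and from −0.61 to 2.07 for *Eif6*. A lone library left in a group was assumed to vary like the other group. The cause of these moves was not tested.

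Same-numbered libraries did not deviate together throughout. Over 13273 genes the correlation of their deviations between genotypes was −0.219 for GV, 0.14 for GVBD and −0.19 for MII, and over all 15 pairs of groups it ran from −0.219 to 0.236, so the numbers were not taken to pair the libraries. Beyond the moves named above, at MII, over all stages and for MII against GV in KO, the replicate block left the counts of calls within 1.5 times. With crossed numbers, a pairing chosen after seeing the data, the counts were 0 for GV, 1 for GVBD and 0 for MII. The precision is limited by 2 libraries a group, and members below 100 counts, among them *Eif2ak2* in KO, rest on few reads.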
